A study of Mus musculus with 36 samples.

Results

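The 10 genes are Per1, Per2, Per3, Cry2, Nr1d1, Nr1d2, Ciart, Bhlhe40, Bhlhe41 and Usp2. All belong to the repressor arm of the circadian clock except Usp2, a deubiquitinase gene that the clock drives. The repressor gene Cry1 is not among the 10. The 10 were picked by gene symbol from the 53715 genes counted in 36 whole mouse kidneys. All 10 had enough reads to be tested. The kidneys came from STZ-cKOt, STZ-control, PBS-cKOt and PBS-control mice, with 9 animals in each group. The cKOt mice were Bmal1 lox/lox /Pax8-rtTA/LC1 animals, in which a Pax8 promoter drives the transactivator rtTA, and doxycycline lets rtTA switch on Cre from the LC1 transgene to delete Bmal1 (gene symbol Arntl) in renal tubule cells. The controls were Bmal1 lox/lox littermates, and both genotypes drank doxycycline at 2 mg/ml for 2 weeks from 8 weeks of age. STZ (streptozotocin, a toxin of pancreatic beta cells that causes type 1 diabetes) was injected at 50 mg/kg daily for 5 days, starting 1 week after doxycycline, and the PBS groups received phosphate-buffered saline. The animals were killed 8 weeks after their final injection, all at zeitgeber time 9 (9 hours after lights on). Every value below is therefore from 1 time of day, and a change in a gene's daily level cannot be told apart from a shift of its daily phase.

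BMAL1 pairs with CLOCK, or with its paralog NPAS2, and binds E-boxes in the promoters of the Per, Cry, Nr1d, Ciart and Bhlhe genes. The PER and CRY proteins then shut off BMAL1 and CLOCK, CIART (also called CHRONO) and the bHLH repressors BHLHE40 and BHLHE41 (DEC1 and DEC2) act on the same complex, and the nuclear receptors REV-ERB alpha (Nr1d1) and REV-ERB beta (Nr1d2) repress Arntl itself. USP2 removes ubiquitin from proteins, clock proteins among them. The Pax8-rtTA transgene is used to target tubule cells, and deletion in each cell type was not measured here.

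The libraries held 16.9 to 22.3 M gene-assigned reads each. Levels are given as CPM (reads scaled to a common library total after TMM normalization), as mean ± SD with n = 9 mice or as lowest, median and highest. Differences are log2 fold changes ± SE by edgeR's quasi-likelihood test, with p adjusted over all 15637 tested genes. Marker genes of every expected kidney cell type were read, with a summed level of 8 proximal tubule markers between 7568 and 12424 CPM per library. In whole tissue, fewer cells of a type and less RNA per cell cannot be told apart. A total of 4 libraries (STZ-control 7 and 8, PBS-cKOt 1 and 3) lay between -56.1 and -26.8 on the second principal component, where the other 32 lay between -17.7 and 19.7.

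The level of the targeted gene is given as a check of the labels. Arntl stood at 12.9, 15.5 and 17.4 CPM (lowest, median and highest) in PBS-cKOt and at 1.09, 1.91 and 2.40 CPM in PBS-control. It stood at 13.0, 14.3 and 17.1 CPM in STZ-cKOt and at 1.18, 1.99 and 13.4 CPM in STZ-control. The whole-gene count was thus higher in cKOt kidneys, by 3.00 ± 0.29 in PBS mice (edgeR adjusted p = 1.22e-10), and such a count does not isolate the exons flanked by lox sites. The highest STZ-control value belongs to 1 library, labelled STZ-control 2, which stood apart from its group in most of the 10 genes as well.

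Ciart stood at 1.95 CPM in the library labelled STZ-control 2, against 18.2 to 32.5 CPM in the other 8 STZ-control libraries, and Nr1d1 at 18.2 CPM against 59.6 to 95.5 CPM. In 7 of the 10 genes its value lay within the range of the 18 cKOt libraries, and in 1 of these, Per1, it also lay within that of the 17 other controls. In 3 genes it lay in neither range. Nr1d2 at 115 CPM lay between the cKOt libraries (up to 66.5 CPM) and the controls (from 164 CPM), and so did Per3 at 29.6 CPM. Cry2, which was higher in cKOt kidneys, was instead lower in this library than in any of the other 35, at 20.9 CPM. Npas2, like Arntl a REV-ERB target, separates the genotypes widely. It stood at 4.49 CPM, where the 18 cKOt libraries held 39.7 to 60.1 CPM and the other controls at most 3.4 CPM. Cry1 also lay in neither range, at 13.5 CPM (from 23.0 CPM in cKOt libraries, at most 7.58 CPM in the other controls). Dbp, an E-box output, lay in the cKOt range at 22.1 CPM (16.5 to 33.1 CPM in cKOt libraries, 94.1 to 179 CPM in the other controls). Nfil3, a repressor that REV-ERB controls, did so at 12 CPM (11.4 to 29.5 CPM in cKOt libraries, 1.03 to 4.78 CPM in the other controls). That value lay below the 9 STZ-cKOt libraries alone, which began at 18.6 CPM. Of 235 genes that differed at least 2-fold between PBS-cKOt and PBS-control with no overlap, 36 lay nearer to STZ-cKOt in this library, against 6 to 26 in each of the other 8 STZ-control libraries (log2 of CPM + 0.1). The library labelled STZ-control 2 was kept in its group, and values without it are given for some results only. Leaving it out moved other genotype effects in STZ mice as well. Nr1d1 changed by -1.55 ± 0.10 without it and -1.42 ± 0.16 with it, and Cry2 by 0.50 ± 0.06 and 0.55 ± 0.07.

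**Figure D1:**
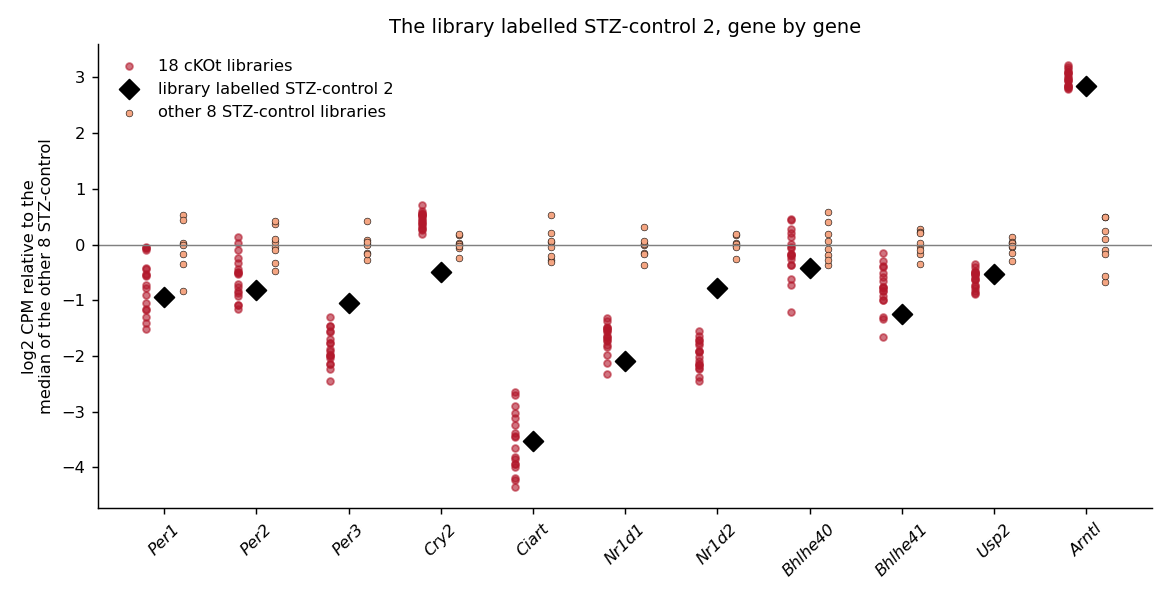
The library labelled STZ-control 2 (black diamonds), the 18 cKOt libraries (red, left) and the other 8 STZ-control libraries (orange, right) are plotted as log2 CPM relative to the median of those 8, for the 10 genes and Arntl. The diamond sits with the cKOt points for Ciart, Nr1d1 and Arntl, between the clouds for Nr1d2 and Per3, and below both for Cry2.

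Upstream sequence was matched for 8 of the 10 genes in RefSeq's promoter table (GRCm38.p6, 250 bases before to 50 after a transcript start, 9 windows). Both strands were searched for the E-box CACGTG, its variant CACGTT, the D-box TTANGTAA, the ROR/REV-ERB element TAGGTCA and the cAMP response element TGACGTCA. CACGTG was found in 3 of the 9 windows, those of Ciart, Bhlhe41 and Per1, and in 7.15% of all 32851 windows. CACGTT was found in those of Cry2 and Nr1d1 (4.68% of all windows) and TTANGTAA in that of Per3 (2.32%). TAGGTCA and TGACGTCA were in none of the 9 windows, and in 2.61% and 1.79% of all. A match is a description of these letters only. The windows shown are those of the 4 genes with the largest falls in cKOt kidneys, and the Per1 window that holds a CACGTG. Per1 did not pass the test in either genotype comparison. Its other window, starting at 69099902, held none of these motifs and is not shown. Capitals mark the matched motifs, and each window reads 5′ to 3′ on the gene's strand.
Ciart, chr3:95882179-95882478, minus strand: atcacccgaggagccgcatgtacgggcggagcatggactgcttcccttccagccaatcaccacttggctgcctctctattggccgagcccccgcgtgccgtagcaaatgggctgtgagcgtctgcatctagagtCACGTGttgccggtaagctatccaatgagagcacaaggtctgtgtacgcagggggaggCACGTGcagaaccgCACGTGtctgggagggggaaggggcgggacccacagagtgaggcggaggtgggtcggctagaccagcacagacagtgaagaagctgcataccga
Nr1d2, chr14:18239057-18239356, minus strand: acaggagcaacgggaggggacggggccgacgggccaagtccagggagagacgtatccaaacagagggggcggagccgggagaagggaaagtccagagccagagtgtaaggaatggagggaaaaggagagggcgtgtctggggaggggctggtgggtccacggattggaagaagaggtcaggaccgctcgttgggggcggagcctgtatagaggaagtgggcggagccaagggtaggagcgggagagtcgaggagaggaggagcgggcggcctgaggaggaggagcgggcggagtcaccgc
Per3, chr4:151044616-151044915, minus strand: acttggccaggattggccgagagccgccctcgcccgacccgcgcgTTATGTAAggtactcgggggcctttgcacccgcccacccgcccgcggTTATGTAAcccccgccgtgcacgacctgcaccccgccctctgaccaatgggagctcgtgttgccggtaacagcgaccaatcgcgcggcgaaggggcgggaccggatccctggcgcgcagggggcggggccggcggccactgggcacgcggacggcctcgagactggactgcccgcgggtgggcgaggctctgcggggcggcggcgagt
Nr1d1, chr11:98775328-98775627, minus strand: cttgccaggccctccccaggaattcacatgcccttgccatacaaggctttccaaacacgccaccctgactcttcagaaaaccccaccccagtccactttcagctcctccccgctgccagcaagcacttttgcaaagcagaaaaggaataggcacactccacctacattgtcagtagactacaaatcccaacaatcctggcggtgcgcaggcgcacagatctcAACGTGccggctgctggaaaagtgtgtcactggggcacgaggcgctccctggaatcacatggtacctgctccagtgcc
Per1, chr11:69098699-69098998, plus strand: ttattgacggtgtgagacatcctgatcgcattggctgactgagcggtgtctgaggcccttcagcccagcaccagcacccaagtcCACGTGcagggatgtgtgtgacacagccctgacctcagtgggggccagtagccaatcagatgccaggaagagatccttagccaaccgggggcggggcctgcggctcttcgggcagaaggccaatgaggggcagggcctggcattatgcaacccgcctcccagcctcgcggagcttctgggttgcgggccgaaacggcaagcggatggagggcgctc
Ciart carried 3 CACGTG motifs, starting at -116, -58 and -44 relative to its transcript start, the last 2 with 8 bases between them. Per3 carried 2 copies of the D-box, which the clock output factors DBP, TEF and HLF bind, starting at -205 and -158. Nr1d1 held CACGTT on the strand opposite to the gene, at -28, and the window of Nr1d2 held none of the 5 motifs.

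Most of the 10 genes were lower, and Cry2 higher, in PBS-cKOt than in PBS-control kidneys. The repressor gene Cry1, outside the 10, was also higher, by 2.41 ± 0.17. Of the 10 genes 8 passed the test, as did 23.4% of all 15637 tested genes. Among them 7 fell (12.5% of all tested genes fell) and 1 rose (10.9% rose), while Per1 and Bhlhe40 did not pass the test. The median log2 fold change of the 10 was -0.64, and that of all tested genes 0.00236. In 5 genes, Ciart, Nr1d2, Per3, Nr1d1 and Usp2, the highest PBS-cKOt library lay below the lowest PBS-control library, which held for 2.72% of all tested genes. In STZ mice 9 of the 10 passed (19.6% of all tested genes), of which 8 fell (10.1% of all) and 1 rose (9.52% of all). Here 2 of the 10 lay wholly below STZ-control (1.64% of all tested genes) and 1 wholly above (1.86%). Without the library labelled STZ-control 2 these counts were 5 and 1. The share of all tested genes was not computed for that setting, and leaving out a library can only add genes without overlap. The median of the 10 was -0.55 in STZ mice and that of all tested genes -0.00835.

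**Figure D2:**
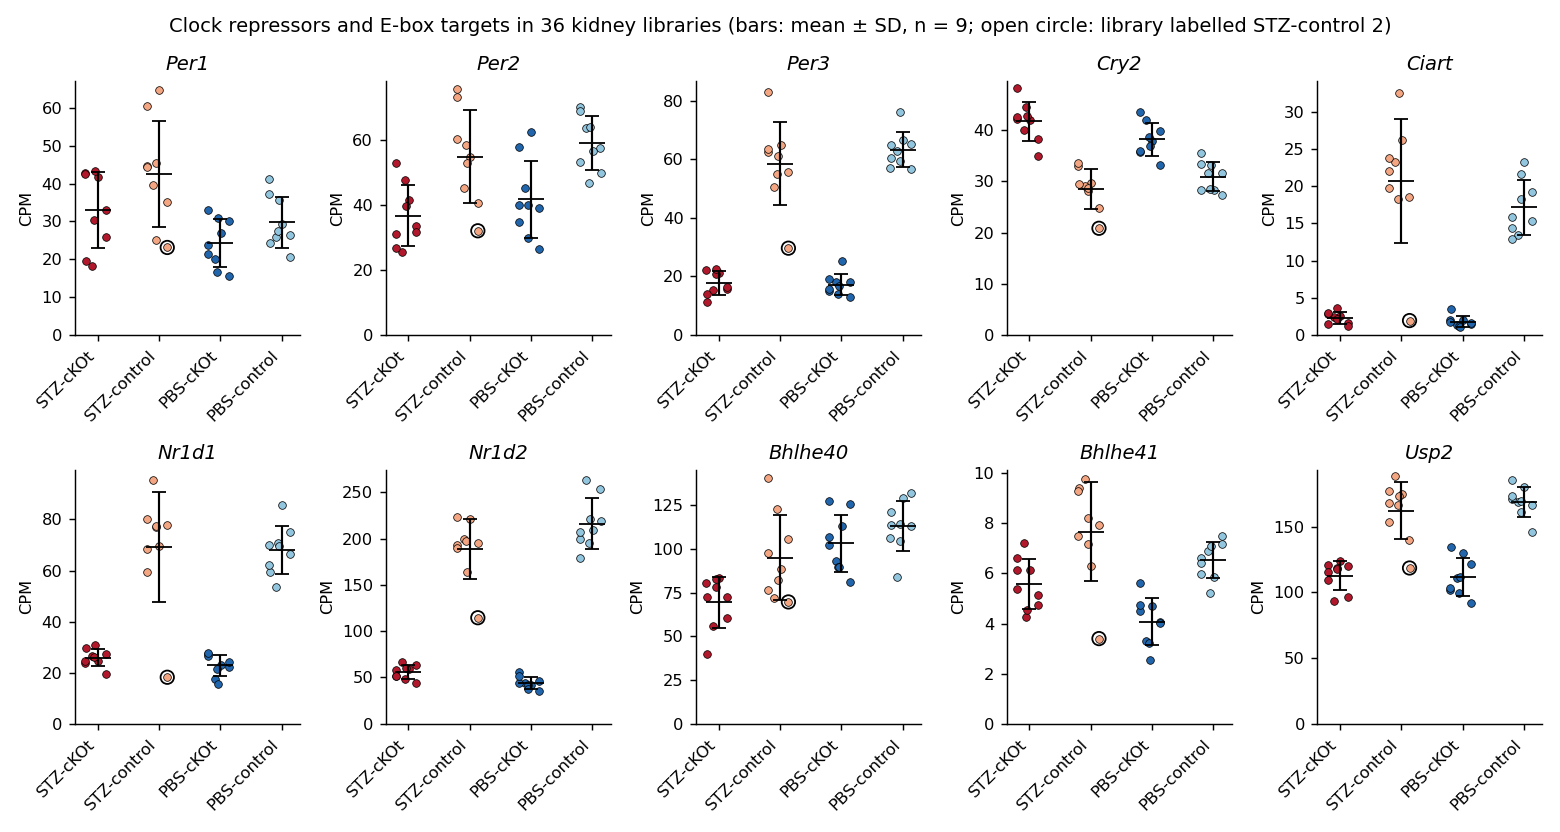
CPM of each of the 10 genes in every library (points), with the mean and SD of the 9 mice per group (bars). The open circle is the library labelled STZ-control 2. Ciart, Nr1d1, Nr1d2 and Per3 sit low in both cKOt groups, Cry2 sits high, and Per1 overlaps in all 4 groups.

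The steepest fall was that of Ciart (ENSMUSG00000038550, chromosome 3, 95878503 to 95882251, GRCm38), the repressor that binds BMAL1. It stood at 1.10, 1.58 and 3.48 CPM in PBS-cKOt and at 12.9, 15.9 and 23.3 CPM in PBS-control. About 10.5% of the control mean remained, a change of -3.25 ± 0.28 (edgeR adjusted p = 1.11e-11). Under STZ it stood at 1.23, 2.41 and 3.62 CPM in STZ-cKOt and at 1.95, 22 and 32.5 CPM in STZ-control, a change of -3.14 ± 0.27 (edgeR adjusted p = 1.31e-11). The single low STZ-control value is that of library 2, and without it the cKOt mean was 10.1% of the control mean.

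Both REV-ERB genes fell in both treatments. Nr1d2 (ENSMUSG00000021775, chromosome 14, 18204054 to 18239127) held 35.7, 43.9 and 56.5 CPM in PBS-cKOt, against 179, 209 and 263 CPM in PBS-control. Its change of -2.29 ± 0.10 (edgeR adjusted p = 4.15e-20) ranked 7 of 15637 genes by p. Under STZ the values were 44.2, 57.6 and 66.5 CPM in STZ-cKOt and 115, 195 and 223 CPM in STZ-control, a change of -1.75 ± 0.10 (edgeR adjusted p = 8.34e-17). The groups did not overlap in either treatment, and 20.5% of the control mean remained in PBS mice and 29.6% in STZ mice. That difference between treatments, 0.53 ± 0.14 on the log2 scale, had an unadjusted p = 0.000442 in the edgeR interaction test and did not pass after adjustment (edgeR adjusted p = 0.198).

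Nr1d1 (ENSMUSG00000020889, chromosome 11, 98767932 to 98775333) held 15.5, 23.1 and 27.6 CPM in PBS-cKOt, against 53.6, 69.6 and 85.5 CPM in PBS-control. The change was -1.58 ± 0.16 in PBS mice (edgeR adjusted p = 6.03e-10), and under STZ it was -1.42 ± 0.16 (edgeR adjusted p = 7.13e-09). In STZ mice the values were 19.6, 26.1 and 30.8 CPM in STZ-cKOt and 18.2, 76.9 and 95.5 CPM in STZ-control, which overlap through library 2 alone. Nr1d1 shares 263 bp of its 3077 bp of exon with Thra on the opposite strand, a thyroid hormone receptor gene at 72.8 CPM on average. How strand was treated in counting is not given in the sources used here, so reads in that stretch cannot be assigned to 1 gene with certainty.

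The Period genes split into a large, a small and an uncalled change. Per3 (ENSMUSG00000028957, chromosome 4, 151003652 to 151044665) stood at 13.2, 16.8 and 25.1 CPM in PBS-cKOt and at 56.6, 62.8 and 76.0 CPM in PBS-control, a change of -1.88 ± 0.14 (edgeR adjusted p = 5.76e-14). The STZ groups stood at 11.2, 16.3 and 22.5 CPM in STZ-cKOt and at 29.6, 61.1 and 83.1 CPM in STZ-control, a change of -1.72 ± 0.13 (edgeR adjusted p = 7.62e-13), and the groups did not overlap in either treatment. PER3 is the Period protein least needed for rhythm in mice.

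Per2 (ENSMUSG00000055866, chromosome 1, 91415982 to 91459324), with Per1 the core Period gene, fell far less. It stood at 26.5, 40.0 and 62.2 CPM in PBS-cKOt and at 46.7, 57.6 and 70.1 CPM in PBS-control, with 7 of 9 knockout mice below every control, a change of -0.50 ± 0.15 (edgeR adjusted p = 0.015). Under STZ the levels were 25.5, 33.5 and 52.9 CPM in STZ-cKOt and at 32, 54.7 and 75.5 CPM in STZ-control, a change of -0.57 ± 0.15 (edgeR adjusted p = 0.00587). About 70.7% of the control mean remained in PBS mice and 67.0% in STZ mice, where Per3 kept 27.2% and 30.3%.

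Per1 (ENSMUSG00000020893, chromosome 11, 69095217 to 69109960), which also answers to glucocorticoids and cAMP, did not pass the test. It stood at 15.6, 23.8 and 33.1 CPM in PBS-cKOt and at 20.6, 27.4 and 41.1 CPM in PBS-control, a difference of -0.29 ± 0.19 (edgeR adjusted p = 0.27). In STZ mice the values were 18.1, 33.0 and 43.3 CPM in STZ-cKOt and 23.1, 44.4 and 64.6 CPM in STZ-control, a difference of -0.36 ± 0.18 (edgeR adjusted p = 0.174). The groups overlapped in both treatments.

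Cry2 (ENSMUSG00000068742, chromosome 2, 92403646 to 92434043) was the 1 gene of the 10 that rose. Cryptochromes are the strongest repressors of CLOCK and BMAL1. Cry2 stood at 33.2, 38.0 and 43.5 CPM in PBS-cKOt and at 27.4, 31.7 and 35.6 CPM in PBS-control, with 8 of 9 knockout mice above every control, a change of 0.30 ± 0.07 (edgeR adjusted p = 0.00128). In STZ mice it stood at 35.0, 42.2 and 48.2 CPM in STZ-cKOt and at 20.9, 29.1 and 33.5 CPM in STZ-control, with no overlap, a change of 0.55 ± 0.07 (edgeR adjusted p = 1.35e-07). The difference between the 2 effects, 0.24 ± 0.10, did not pass the edgeR interaction test (adjusted p = 0.368).

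**Figure D3:**
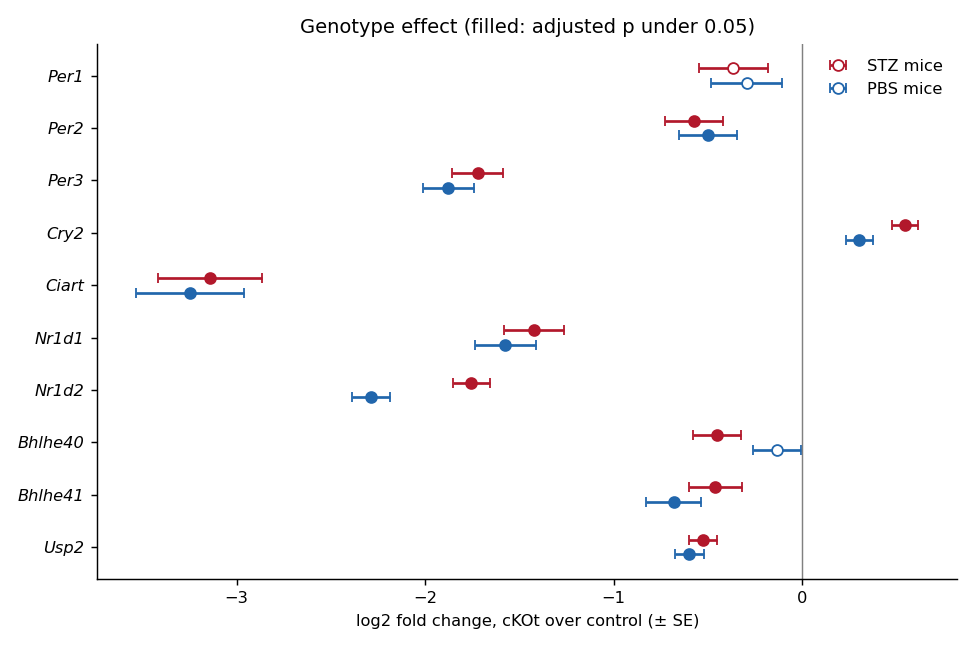
Log2 fold change of cKOt over control (± SE) for the 10 genes, in STZ mice (red, above) and PBS mice (blue, below). Filled points have an adjusted p under 0.05. Ciart lies at -3.14 and -3.25, Nr1d2 at -1.75 and -2.29, and Cry2 lies right of 0 in both treatments.

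The DEC repressors differed from each other. Bhlhe41 (ENSMUSG00000030256, chromosome 6, 145858243 to 145865558) was read at a low level, 2.56, 4.06 and 5.64 CPM in PBS-cKOt and 5.23, 6.61 and 7.51 CPM in PBS-control, a change of -0.68 ± 0.15 (edgeR adjusted p = 0.000498). With STZ the levels were 4.28, 5.36 and 7.22 CPM in STZ-cKOt and at 3.4, 7.94 and 9.78 CPM in STZ-control, a change of -0.46 ± 0.14 (edgeR adjusted p = 0.0163). Limma voom with quality weights did not call the change in STZ mice (adjusted p = 0.0618).

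Bhlhe40 (ENSMUSG00000030103, chromosome 6, 108660629 to 108666925), which hypoxia and other stresses also induce, was read at 81.4, 102 and 128 CPM in PBS-cKOt and at 83.9, 114 and 132 CPM in PBS-control. The difference of -0.13 ± 0.13 did not pass (edgeR adjusted p = 0.481). The STZ groups were read at 40.2, 72.6 and 83.2 CPM in STZ-cKOt and at 69.8, 88.6 and 140 CPM in STZ-control, and fell by 0.45 ± 0.13 on the log2 scale (edgeR adjusted p = 0.00864). A call in STZ mice alone does not show that the effects differ, and the edgeR interaction test gave -0.32 ± 0.18 (adjusted p = 0.436).

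Usp2 (ENSMUSG00000032010, chromosome 9, 44067021 to 44095627) was among the most abundant of the 10. It stood at 91.9, 111 and 135 CPM in PBS-cKOt and at 146, 169 and 185 CPM in PBS-control, with no overlap, a change of -0.60 ± 0.08 (edgeR adjusted p = 6.98e-08). In STZ mice it stood at 93.3, 118 and 124 CPM in STZ-cKOt and at 119, 168 and 189 CPM in STZ-control, a change of -0.53 ± 0.08 (edgeR adjusted p = 1.02e-06). The groups in STZ mice overlapped only at library 2. Its RefSeq window starts inside the annotated gene, at 44084670, so it is that of a shorter transcript.

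The order of the genes by level was not the same in the 2 genotypes. Per kb of exon, PBS-cKOt kidneys held most Usp2 (23.2 ± 2.98 CPM per kb) and Bhlhe40 (22 ± 3.49), and then Nr1d2 (8.19 ± 1.19), Nr1d1 (7.43 ± 1.36), Per2 (7.12 ± 2.02) and Cry2 (6.04 ± 0.510). Per1 (4.31 ± 1.12), Per3 (1.79 ± 0.370), Ciart (0.796 ± 0.317) and Bhlhe41 (0.607 ± 0.140) came last. PBS-control kidneys held most Nr1d2 (40.0 ± 5.03 CPM per kb), then Usp2 (35.1 ± 2.35), Bhlhe40 (24.1 ± 3.07), Nr1d1 (22.1 ± 3.03) and Per2 (10.1 ± 1.40). Ciart (7.58 ± 1.63), Per3 (6.58 ± 0.618), Per1 (5.29 ± 1.2), Cry2 (4.89 ± 0.453) and Bhlhe41 (0.972 ± 0.108) followed. Neighbours in the PBS-control order overlapped within 1 SD, except Usp2 and Bhlhe40, Nr1d1 and Per2, and Cry2 and Bhlhe41. Cry2 stood ninth in PBS-control and sixth in PBS-cKOt.

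With STZ, 3 of the 10 passed the test in cKOt mice (11.6% of all tested genes) and 0 in control mice. In cKOt mice 2 rose (6% of all) and 1 fell (5.63% of all), and 0 of the 10 lay wholly above or below PBS-cKOt, as 0.454% and 0.422% of all tested genes did. Bhlhe40 fell by 0.57 ± 0.13 on the log2 scale, at 69.6 ± 14.6 CPM in STZ-cKOt and 103 ± 16.4 CPM in PBS-cKOt (edgeR adjusted p = 0.00204), with 7 of 9 STZ mice below every PBS mouse. Bhlhe41, its paralog, rose by 0.45 ± 0.15, at 5.57 ± 1.01 CPM in STZ-cKOt and 4.08 ± 0.944 CPM in PBS-cKOt (edgeR adjusted p = 0.0371). Nr1d2 rose by 0.33 ± 0.10, at 55.9 ± 7.25 CPM in STZ-cKOt and 44.3 ± 6.45 CPM in PBS-cKOt (edgeR adjusted p = 0.0211). Of these calls, that of Nr1d2 was lost without the 4 libraries apart on the second principal component (edgeR adjusted p = 0.0743), and that of Bhlhe41 with no filter on low counts (edgeR adjusted p = 0.0537).

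In control mice 0 of the 10 genes passed edgeR's test of STZ against PBS, where 12.3% of all tested genes did (6.34% higher and 5.93% lower), and DESeq2 and limma called 0 as well. None of the 10 lay wholly above or below PBS-control, against 0.742% and 0.48% of all tested genes. Before adjustment 2 of the 10 had p under 0.05, Per1 and Nr1d2, as had 4166 of all 15637 tested genes. Per1 stood at 42.5 ± 14 CPM in STZ-control and 29.8 ± 6.78 CPM in PBS-control, a difference of 0.51 ± 0.19 (edgeR adjusted p = 0.0639). Without the library labelled STZ-control 2 it was 0.59 ± 0.18 (edgeR adjusted p = 0.0285). In cKOt mice Per1 stood at 33.0 ± 10.1 CPM in STZ-cKOt and 24.3 ± 6.33 CPM in PBS-cKOt, a difference of 0.44 ± 0.19 (edgeR adjusted p = 0.122). The other 8 differences in control mice lay between -0.25, for Bhlhe40, and 0.27, for Ciart. For Ciart it was 0.42 ± 0.16 without the library labelled STZ-control 2 (edgeR adjusted p = 0.0712) and -0.07 ± 0.28 by limma voom (adjusted p = 0.912). The genotype and the treatment comparisons share groups of libraries and are not independent of each other.

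Averages over both genotypes or both treatments were added after the data had been seen. For STZ against PBS averaged over the genotypes, 3 of the 10 passed (21.1% of all tested genes). Per1 rose by 0.48 ± 0.13 (edgeR adjusted p = 0.00726) and Bhlhe41 by 0.34 ± 0.10 (edgeR adjusted p = 0.0123), while Bhlhe40 changed by -0.41 ± 0.09 (edgeR adjusted p = 0.000737). Without the library labelled STZ-control 2, Ciart passed too, at 0.40 ± 0.13 (edgeR adjusted p = 0.0241). For cKOt against control averaged over the treatments, 9 of the 10 passed (32.4% of all tested genes), and Per1, at -0.33 ± 0.13, did not (edgeR adjusted p = 0.052). Without that library Per1 passed, at -0.37 ± 0.13 (edgeR adjusted p = 0.0237).

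**Figure D4:**
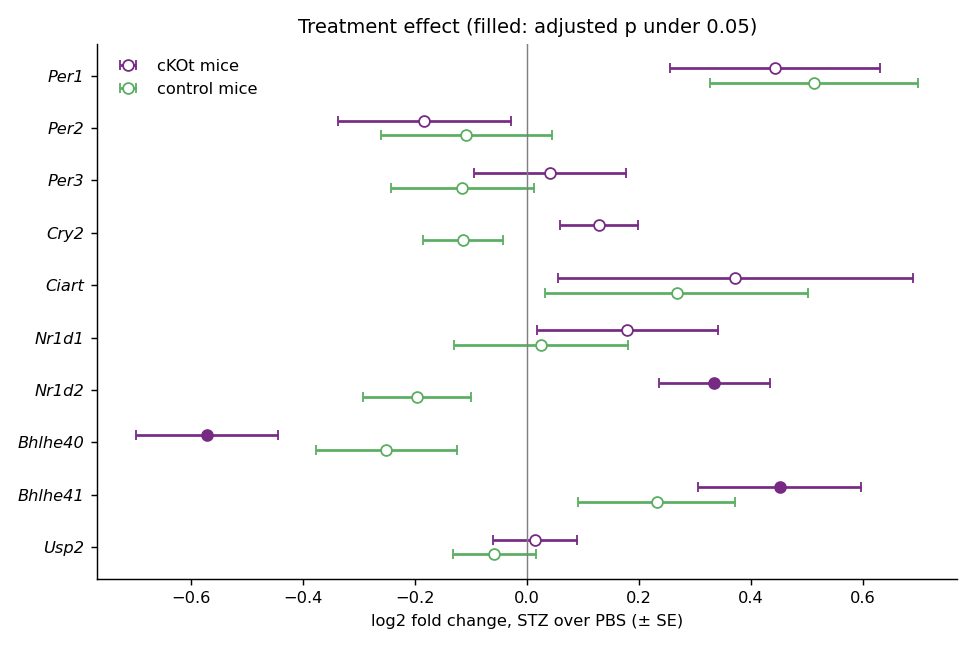
Log2 fold change of STZ over PBS (± SE) for the 10 genes, in cKOt mice (purple, above) and control mice (green, below). Filled points have an adjusted p under 0.05, which holds for Nr1d2, Bhlhe40 and Bhlhe41 in cKOt mice and for no gene in control mice.

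No interaction between genotype and treatment was called among the 10 by edgeR, where 0.0448% of all tested genes were. DESeq2 and limma called 0 as well, and before adjustment 2 of the 10, Nr1d2 and Cry2, had p under 0.05 by edgeR, as had 1944 of all 15637 tested genes.

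Markers of other cells moved beside these genes. In STZ-cKOt 5 of 7 macrophage markers were lower than in STZ-control, with a summed level of 171 to 211 CPM in STZ-cKOt and 203 to 362 CPM in STZ-control. In PBS mice 2 of 7 were lower, with 154 to 211 CPM in PBS-cKOt and 194 to 278 CPM in PBS-control. Of the 8 proximal tubule markers 3 were lower in cKOt kidneys in each treatment, with a summed level of 8244 to 11866 CPM in PBS-cKOt and 10523 to 12424 CPM in PBS-control. Fibroblast and mural markers had 4 of 7 lower in PBS-cKOt, at 163 to 230 CPM in PBS-cKOt and 199 to 305 CPM in PBS-control, and 3 of 7 were higher in STZ-cKOt than in PBS-cKOt. In the same comparison 3 of 6 endothelial markers were higher and 3 of 8 proximal tubule markers lower. In STZ-control 3 of 7 macrophage markers were higher than in PBS-control, and 2 of 8 proximal tubule markers lower. Of 4 distal convoluted tubule markers, 2 were higher with STZ in each genotype. Of 5 thick ascending limb markers, 2 were lower with STZ in cKOt mice. Among all tested genes, 12.5% were lower in PBS-cKOt than in PBS-control and 10.1% in STZ-cKOt than in STZ-control. With STZ, 6% were higher and 5.63% lower in cKOt mice, and 6.34% higher and 5.93% lower in control mice. Not every marker list is given here, and no marker in the lists named was at 0. The part of these cell types in the results was not tested.

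Other genes of the clock circuit were read from short lists. Of 7 clock activators and genes with ROR/REV-ERB elements, 6 rose in cKOt kidneys in each treatment (10.9% of all tested genes in PBS mice, 9.52% in STZ mice). The 6 included Cry1, the partner of Cry2, by 2.41 ± 0.17 in PBS mice and 2.15 ± 0.17 in STZ mice. Clock itself rose by 0.46 ± 0.11 and 0.65 ± 0.11, and Rora did not pass (edgeR adjusted p = 0.0577 and 0.664). Of 6 further E-box output genes 5 fell in PBS mice (12.5% of all tested genes) and 4 in STZ mice (10.1%). The call of Hlf in PBS mice was lost under an alternative (highest adjusted p = 0.0934). Wee1, a kinase gene that holds back mitosis, changed by -0.98 ± 0.10 in PBS mice and -0.80 ± 0.10 in STZ mice. Nampt, of NAD synthesis, changed by -0.70 ± 0.08 and -0.41 ± 0.08.

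The lists also held genes that modify the repressor proteins. Of 11 kinases, ligases and partners of PER and CRY, 1 rose and 2 fell in PBS mice (10.9% and 12.5% of all tested genes) and 4 rose and 0 fell in STZ mice (9.52% and 10.1%). The calls of Usp7 and Fbxl21 in PBS mice (highest adjusted p = 0.167 and 0.0786) and of Csnk1a1 in STZ mice (highest adjusted p = 0.188) were lost under alternatives, and these 3 genes are named after their values were seen. Csnk1d, the kinase that marks PER for degradation, rose by 0.17 ± 0.04 in PBS mice (edgeR adjusted p = 0.00564) and 0.18 ± 0.04 in STZ mice (edgeR adjusted p = 0.00319). Of 8 co-repressors and turnover factors of REV-ERB, 2 rose and 1 fell in PBS mice and 1 rose and 2 fell in STZ mice. Fbxw7, a ligase subunit that degrades REV-ERB alpha, rose by 0.15 ± 0.05 and 0.27 ± 0.05, and Siah2, another REV-ERB ligase, fell by 0.23 ± 0.08 and 0.28 ± 0.08. Hdac3, a co-repressor deacetylase gene, rose in PBS mice (edgeR adjusted p = 0.0394). Each of these 3 calls in PBS mice was lost under an alternative, with a highest adjusted p of 0.0666 for Fbxw7, 0.0625 for Siah2 and 0.0549 for Hdac3.

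Of 6 glucocorticoid-responsive genes 3 rose in cKOt kidneys in each treatment and 0 fell. Among all tested genes 10.9% rose in PBS mice and 9.52% in STZ mice. The call of Zbtb16 in STZ mice was lost under an alternative (highest adjusted p = 0.0551). Fkbp5, a chaperone gene, differed by -0.31 ± 0.13 and -0.30 ± 0.13 and did not pass (edgeR adjusted p = 0.092 and 0.117). Sgk1, a kinase gene of sodium transport, rose by 0.86 ± 0.15 in PBS mice and 0.91 ± 0.15 in STZ mice. It also rose with STZ, by 0.64 ± 0.15 in control mice (edgeR adjusted p = 0.00396) and 0.70 ± 0.15 in cKOt mice (edgeR adjusted p = 0.0016). Of 6 immediate early genes 0 passed in PBS mice by edgeR, DESeq2 or limma, with 2 (Fosb and Egr1) under an unadjusted edgeR p of 0.05. In PBS mice 23.4% of all tested genes passed. In STZ mice 1 of the 6, Atf3, fell by 0.59 ± 0.21 (edgeR adjusted p = 0.0423), where 10.1% of all tested genes fell. The call of Atf3 was lost under an alternative (highest adjusted p = 0.0845).

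A search covered 11959 genes outside the 10, leaving out predicted-gene names (Gm, Rik). For each of the 10, the gene with the closest log2 CPM over the 36 libraries was sought, by root mean square difference after centring. For Ciart it was Dbp, an E-box output factor, at 0.61, where the SD of Ciart itself was 1.70. For Nr1d2 it was the RNA-binding protein gene Cpeb3 (chromosome 19, 37021291 to 37208601) at 0.23 with an SD of 1.04, and for Per3 Coq10b, of coenzyme Q function, at 0.32 with an SD of 0.95. Cpeb3 changed by -2.22 ± 0.12 in PBS mice and -1.59 ± 0.11 in STZ mice, and it rose with STZ in cKOt mice by 0.45 ± 0.11 (edgeR adjusted p = 0.00635). Nr1d1 was closest to Mcm10, a DNA replication gene, at 0.369 with an SD of 0.82. Tef, of the E-box output list, came next at almost the same distance, 0.376. The nearest genes were Mknk2 for Usp2 (0.12, SD 0.32), Erbb2 for Cry2 (0.15, SD 0.27), Slc12a7 for Per2 (0.27, SD 0.44) and Map3k6 for Per1 (0.35, SD 0.49). They were Ivd for Bhlhe40 (0.23, SD 0.38) and Tns2 for Bhlhe41 (0.28, SD 0.45). These distances are descriptions, and the libraries share their scaling.

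Animals of 1 group also differed from each other, least in PBS-control. The coefficient of variation of the 10 genes had a median of 19.5% in STZ-cKOt, 19.5% in PBS-cKOt, 25.5% in STZ-control and 12.7% in PBS-control. The STZ-control figure includes the library labelled STZ-control 2, which was lowest of its group in each of the 10 genes. For Nr1d1, STZ-control stood at 69.3 ± 21.5 CPM with that library and at 75.7 ± 10.5 CPM in the other 8. STZ-control is therefore not shown to be the most variable group apart from that library. Within groups, 4 pairs of related genes were compared across the 9 mice (16 relations, exact permutation tests, two-sided, adjusted over the 16). Per2 and Per3 varied together in PBS-cKOt, with Pearson's r = 0.928 (p = 5.79e-05, exact permutation, adjusted p = 0.000926) and Spearman's rho = 0.95 (p = 0.000353, exact permutation, adjusted p = 0.00564). In STZ-cKOt r was 0.862 (p = 0.00435, exact permutation, adjusted p = 0.0232) and rho 0.817 (p = 0.0108, adjusted p = 0.0856). In STZ-control r was 0.863 (p = 0.00179, exact permutation, adjusted p = 0.0143) and rho 0.767 (p = 0.0214, adjusted p = 0.0856), or r = 0.741 without library 2 (exact permutation, adjusted p = 0.129).

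In PBS-control r between Per2 and Per3 was -0.0214 (p = 0.958, exact permutation, adjusted p = 0.958) and rho -0.133 (p = 0.744, adjusted p = 0.85). Without the 2 mice farthest from the median of Per2, r was 0.871 in PBS-cKOt, 0.849 in STZ-cKOt, 0.609 in STZ-control and -0.122 in PBS-control. Whether the correlation differs between groups was not tested. Of the other 12 relations, for Nr1d1 and Nr1d2, Per1 and Per2, and Bhlhe40 and Bhlhe41, 0 passed after adjustment by either measure, and 2 had an unadjusted Pearson p under 0.05, Per1 and Per2 in PBS-cKOt (r = 0.729, p = 0.0263, exact permutation) and in STZ-cKOt (r = 0.687, p = 0.0455, exact permutation). By Spearman, Nr1d1 and Nr1d2 in PBS-cKOt had an unadjusted p under 0.05 (rho = 0.767, p = 0.0214, exact permutation, adjusted p = 0.0856).

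**Figure D5:**
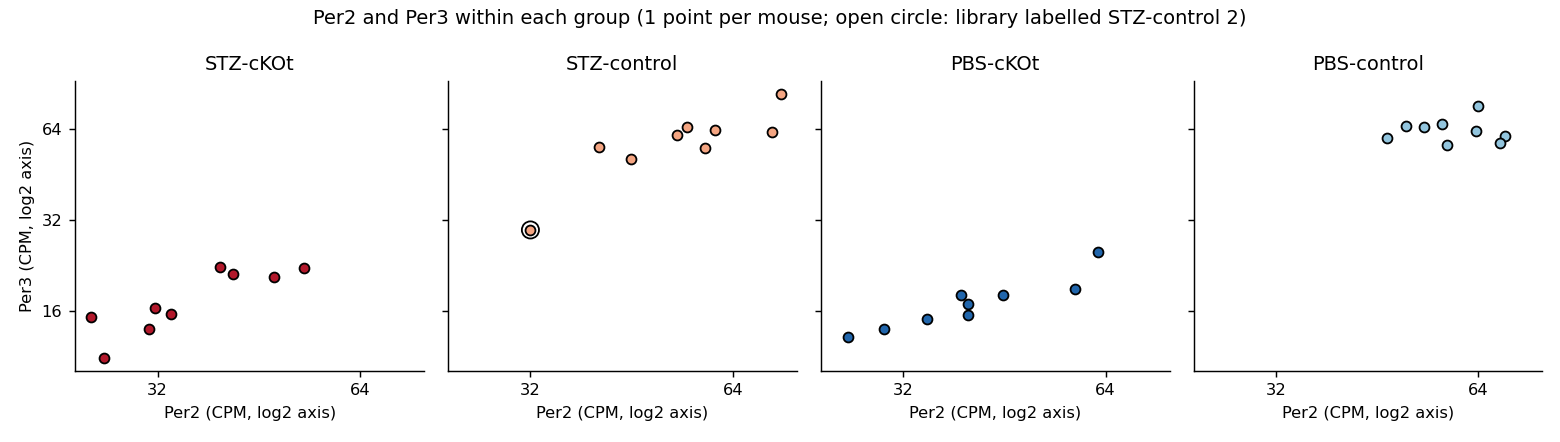
Per3 against Per2 in CPM (both axes log2), 1 point per mouse, in the 4 groups. The points of PBS-cKOt, STZ-cKOt and STZ-control rise together, with r between 0.862 and 0.928, and those of PBS-control do not (r = -0.0214). The open circle is the library labelled STZ-control 2.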

How the data were processed

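Whole-kidney RNA from 36 mice (9 per group, TruSeq Stranded mRNA) was sequenced, and the authors deposited a read count per gene and library. Per the submitters' processing notes, reads were trimmed with cutadapt 1.8, aligned with STAR 2.5.3a to GRCm38 and counted with HTSeq 0.9.1. Counting options, strand setting and annotation release are not given in the sources used here. Per library, 30.9% to 42.8% of the HTSeq total was reads without a unique alignment, 3.64% to 6.38% reads in no feature and 0.582% to 0.738% ambiguous reads, and these 5 non-gene entries were left out. The series design text gives 9 animals per group, so p-values measure the spread between animals.

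The counts were tested with edgeR 4.0.16 (quasi-likelihood F test, TMM, filterByExpr, 15637 genes) in R 4.3.3, with 1 mean per group over all 36 libraries, Benjamini-Hochberg adjustment per contrast and a threshold of 0.05. The SE is the log2 fold change over the square root of F. CPM per kb used exon lengths of GENCODE M21. The scripts were tested on simulated data. Alternatives used DESeq2 1.42.0, limma 3.58.1, other filters and left-out libraries. No 2 libraries of a group agreed within sampling noise (chi-square per gene 5.85 to 99.8 over 144 pairs). The members and gene lists were chosen with earlier results of these data known. Named genes are all 10 members, Arntl, any gene of a list of 7 or fewer, up to 3 genes with the smallest adjusted p in longer lists, and for each member the nearest other gene with a mean of at least 2 CPM. Some genes of the lists are not reported here by name.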

Additional observations from a re-analysis of the deposited data

Results flagged for a closer look

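Of 40 sets of 9 values (10 genes in 4 groups), 4 held a value far from the others by Dixon's test at the 95% level, and chance flags about 1 in 20 such sets. In the library labelled STZ-control 2, Nr1d1 was lowest of its group at 18.2 CPM, where the next stood at 59.6 CPM, and Ciart was lowest at 1.95 CPM, where the next stood at 18.2 CPM. Per3 in PBS-cKOt 3 was highest of its group at 25.1 CPM, where the next stood at 19.0 CPM, and this library is among the 4 that lay apart on the second principal component. Ciart in PBS-cKOt 5 was highest at 3.48 CPM, where the next stood at 2.08 CPM. No gene of the 10 passed the interaction test.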

How the results depend on the processing

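No result that passed its test changed sign under the alternatives run (size factors of DESeq2, DESeq2, limma voom, other filters, only the groups of a contrast, a replicate block, and leaving out the library labelled STZ-control 2 or the 4 libraries apart on the second principal component). In cKOt mice, 1 of the 10 rose with STZ, against 2 in the main fit, both with no filter on low counts (Bhlhe41, 0.46 ± 0.14, edgeR adjusted p = 0.0537) and without the 4 libraries (Nr1d2, 0.29 ± 0.11, edgeR adjusted p = 0.0743). In control mice, 1 of the 10 rose with STZ, against 0, without the library labelled STZ-control 2 (Per1, 0.59 ± 0.18, edgeR adjusted p = 0.0285) and with the replicate block (Per1, 0.50 ± 0.15, edgeR adjusted p = 0.0261). The cause was not tested, and the block changed no other call among the 10 genes. Over 54 pairs of libraries with the same replicate number, the correlation of deviations ran from -0.23 to 0.377, with 14 over 0.1. In 10 of the 54 the best match carried the same number. No chance level was set for this check, so it cannot decide whether replicate numbers pair the samples. The change of Bhlhe41 in STZ mice missed the threshold with limma voom (-0.39 ± 0.15, adjusted p = 0.0618). The correlation of Per2 and Per3 in STZ-control was 0.741 without the library labelled STZ-control 2 (exact permutation, adjusted p = 0.129). The number of the 10 genes lying wholly below STZ-control was 5 without that library, against 2 with it. No share of all tested genes was computed without it, and leaving out a library can only add such genes. The other counts of the 10 genes called per direction kept their value within 1.5 times. Ciart and Bhlhe41, at a few CPM, rest on the fewest reads.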
